A study of Mus musculus with 12 samples.

Results

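The Sfmbt2 intronic miRNA cluster was read in 12 small RNA-seq libraries of mouse embryonic stem cells (ESCs), cultured pluripotent cells derived from the blastocyst. Members were the features of the deposited table on chromosome 2 whose symbol begins with Mir and that lie within the interval of Sfmbt2, together with Sfmbt2 itself. This gave 68 miRNAs and 1 host gene among 32101 features, of which 1577 are annotated as miRNAs. The genotypes were WT with 6 libraries (from 1A to 3B), Dnmt1 KO with 2 (A and B) and Dicer/Dnmt1 KO with 4 (from 1A to 2B), and every library is labelled as E14 ESCs. Dnmt1 is the maintenance DNA methyltransferase, and Dicer cuts miRNA precursors into mature small RNAs. The Dicer/Dnmt1 KO group lacks both genes, and no library lacks Dicer alone.

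Libraries A and B that share a title but for the letter are called a pair here, which gives 3 pairs in WT, 1 in Dnmt1 KO and 2 in Dicer/Dnmt1 KO. Whether A and B of a pair came from 1 culture or were grown separately is not given by the labels. WT 2A and 2B are titled E14 2 without a genotype and are labelled as wild type. The methods of the study describe the line with the deletable Dnmt1 gene as one of C57BL/6 origin, with deletion by a tamoxifen-inducible Cre, and growth with or without feeder fibroblasts. A difference of line between WT and the knockouts, if the WT libraries are E14, and the effect of genotype cannot be told apart. A WT library held between 16142 and 245184 reads, a Dnmt1 KO library 67678 or 107607 and a Dicer/Dnmt1 KO library between 8710 and 150701. Levels are given as RPM, the reads of a feature scaled to 1000000 library reads, and 1 read was worth between 4.08 and 115 RPM. Intervals and limits given below cover counting error only. A and B of every pair differed by more than sampling noise over all features (chi-square per degree of freedom between 9.08 and 24.7), and all 12 libraries were kept apart. This does not make them independent. The consensus correlation within pairs was 0.30, and the main fit does not take it into account. P-values measure the spread between these libraries, which may be technical. Small RNA reads over the Dnmt1 and Dicer1 features, at most 18 and 3 in a library, were too few to check the genotype labels.

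Sfmbt2 encodes a Polycomb-group protein and is an imprinted gene expressed from the paternal allele in early embryonic and placental tissue of the mouse. One of its introns carries a rodent-specific array of miRNAs, in which copies of a few ancestral hairpins repeat in tandem. An intronic miRNA is transcribed as a portion of its host RNA, released as a hairpin by Drosha and Dgcr8, and then cut by Dicer to a duplex from which one strand is loaded into an Argonaute protein. The seed, bases 2 to 8 of the mature miRNA, is the stretch through which targets are mainly recognised.

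Sfmbt2 lies at chr2:10292137-10516880 on the plus strand of build NCBIM37. The 68 miRNAs spanned 51336 nt, from chr2:10388571 to chr2:10439906, and all 68 lay on the strand of Sfmbt2 in intron 10 of its 23-exon transcript Sfmbt2-001. No member overlapped its neighbour, and gaps between neighbours had a median of 210 nt. By name, 29 belonged to the Mir669 family, 21 to Mir466, 12 to Mir467 and 5 to Mir297, with Mir4660 apart.

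None of the 68 members was matched by symbol in the RefSeq table of mature miRNAs (GRCm38.p6). Of the 11 features that carry the same family names but lie outside Sfmbt2, 7 were matched. Their mature sequences are shown as the nearest named relatives, 5′ to 3′ with the seed in capitals, because they show the repeat-rich letters of these families.
mmu-miR-467f: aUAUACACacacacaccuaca
mmu-miR-467g: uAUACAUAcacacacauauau
mmu-miR-467h: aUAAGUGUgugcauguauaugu
mmu-miR-466i-3p: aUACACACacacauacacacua
mmu-miR-466j: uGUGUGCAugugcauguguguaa
mmu-miR-466k: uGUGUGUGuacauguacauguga
mmu-miR-669n: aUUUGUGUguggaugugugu
The 7 relatives had 7 different seeds. The strand of the duplex is named only for mmu-miR-466i-3p, and opposite strands differ in seed. These seeds thus do not show whether the members of a family share one. All 11 features outside Sfmbt2 were at 0 reads in all 12 libraries, as were 46 clone-named features and 5 further miRNA features inside the gene. Among features with these family names, reads were thus assigned to members alone. Features elsewhere under other names were not searched for family reads.

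RefSeq gives 2 start sites for Sfmbt2, and the 250 bases before each are shown because the members lie on the host's strand within its transcript. Both are on the plus strand of GRCm38.p6, at chr2:10370201-10370450 and chr2:10372186-10372435, with CpG dinucleotides, the sites that Dnmt1 keeps methylated, in capitals.
Sfmbt2 upstream start: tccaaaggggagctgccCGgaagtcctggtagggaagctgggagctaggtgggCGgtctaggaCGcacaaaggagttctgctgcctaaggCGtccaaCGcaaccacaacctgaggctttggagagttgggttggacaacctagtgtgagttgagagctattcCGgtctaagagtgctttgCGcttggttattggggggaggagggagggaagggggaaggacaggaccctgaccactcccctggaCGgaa
Sfmbt2 downstream start: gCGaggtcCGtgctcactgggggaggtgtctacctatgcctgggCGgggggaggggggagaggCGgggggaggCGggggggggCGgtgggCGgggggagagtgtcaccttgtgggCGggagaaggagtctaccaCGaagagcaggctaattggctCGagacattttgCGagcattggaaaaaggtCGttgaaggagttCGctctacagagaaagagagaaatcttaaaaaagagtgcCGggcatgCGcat
The first held 8 CpGs, and 43.0% of 32851 promoter windows of this length held as many or more. The second held 15, which 27.3% of windows reached. Methylation was not measured in these libraries.

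Across the 12 libraries Sfmbt2 collected 574 reads of 20 to 24 nt, and 545 of them lay inside the 68 miRNAs. Reads were unevenly spread, with 20 members detected and 48 at 0 in all libraries. The Mir467 family held 305 reads and the Mir669 family 221, against 9 for Mir466, 8 for Mir297 and 2 for Mir4660. Mir467c was the most abundant member with 181 reads, followed by Mir669c with 134, Mir467d with 67 and Mir467e with 53. Mir669l, Mir669o and Mir669e had 30, 28 and 21 reads. The other 13 detected members had 1 to 5 reads each and 31 together.

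**Figure D1:**
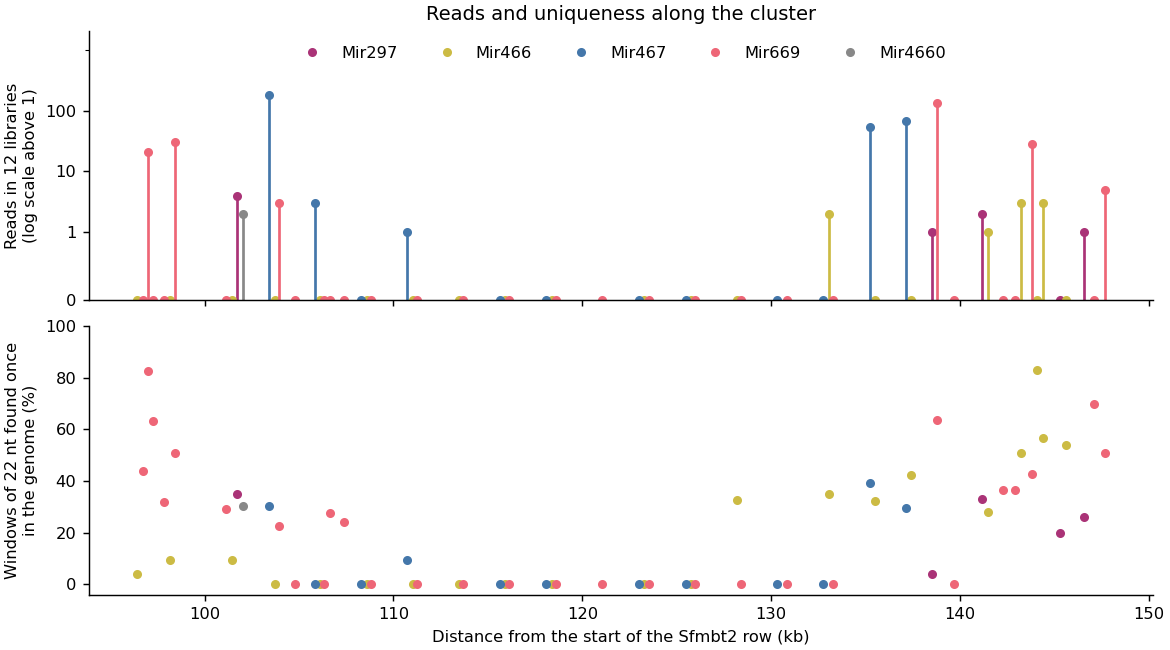
Reads of each member summed over the 12 libraries (upper panel, log scale above 1 read) and the percentage of its 22 nt windows that occur once in the NCBIM37 genome (lower panel), against distance from the start of the Sfmbt2 feature in kb, coloured by family. Reads sit at both ends of the array, and the 22 consecutive members between Mir467b and Mir466b-3 have none.

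The members differed in how far a short read could be placed in them. Each member interval was split into all of its 22 nt windows, and both strands of the NCBIM37 genome were searched for exact copies of each window. In 31 members no window was found once only, and these comprised 14 of the Mir669 family, 9 of Mir466 and 8 of Mir467. Of these 31 members, 1 had reads, Mir467a-1 with 3. Of the other 37 members, each with at least 1 window unique to it, 19 had reads and together held 542 of the 545. The longest run of neighbouring members without a read counted 22 members, lying between Mir467b at 110.7 kb and Mir466b-3 at 133.1 kb from the start of Sfmbt2, and 21 of them had no unique window. How reads with several positions were placed is not stated, so a count of 0 in these members is no measure of their level. The 4 most abundant members also carried copied windows, since 63.6% of windows were unique in Mir669c, 39.4% in Mir467e, 30.3% in Mir467c and 29.7% in Mir467d. Reads of these members may thus include reads of near-identical copies, and the part of placement in the counts was not tested.

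In WT the Sfmbt2 feature, which carries the reads of its miRNAs, stood at 465, 483, 248, 514, 416 and 577 RPM in libraries 1A to 3B. It stood at 1182 and 1069 RPM in the Dnmt1 KO libraries, and at 0, 115, 15.8 and 26.5 RPM in the Dicer/Dnmt1 KO libraries. The 3 groups did not overlap, with Dnmt1 KO highest and Dicer/Dnmt1 KO lowest. Here and below such separations of libraries are descriptions, and the share of all features that separate alike was not counted. The WT library lowest among the 6, 2A, rested on 4 reads.

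Summed over the 68 miRNAs, WT libraries had a mean of 426 ± 99.1 RPM (SD, n = 6). Dnmt1 KO libraries reached 1099 ± 55.4 RPM (n = 2), and Dicer/Dnmt1 KO libraries 3.94 ± 7.88 RPM (n = 4). In reads, this was 353 in WT and 191 in Dnmt1 KO, against 1 in 247330 library reads of Dicer/Dnmt1 KO. Over all reads of a group, the summed members were 2.35-fold higher in Dnmt1 KO than in WT (95% exact interval 1.96 to 2.82), and 114-fold higher in WT than in Dicer/Dnmt1 KO (20.4 to 4534). These sums are descriptions and carry no test. They count small RNAs and do not measure the host transcript. Fewer cells with these small RNAs and fewer of them per cell cannot be told apart in bulk RNA. As a share of all miRNA reads, the members made up 0.0357% to 0.156% in WT (median 0.114%). Their share was 0.169% or 0.174% in a Dnmt1 KO library, and at most 0.0154% in a Dicer/Dnmt1 KO library. The libraries also differed in miRNA content, with 286926 miRNA reads of 762641 in WT, 111756 of 175285 in Dnmt1 KO and 20772 of 247330 in Dicer/Dnmt1 KO. Over all miRNA reads of a group the members made up 0.123% in WT and 0.171% in Dnmt1 KO, a smaller difference than in RPM.

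**Figure D2:**
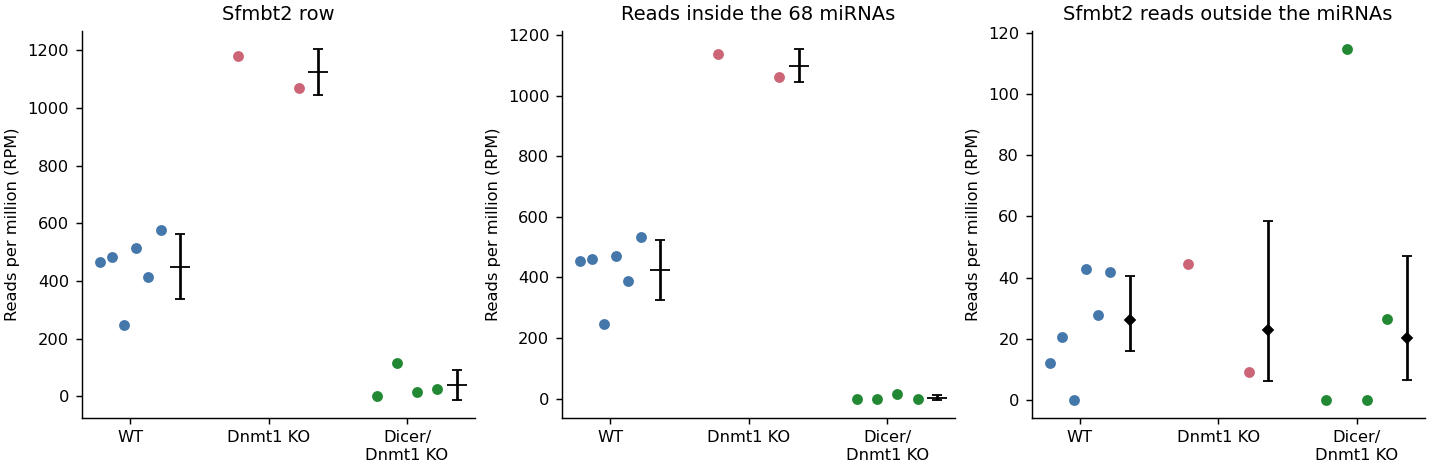
Levels in RPM of the Sfmbt2 feature, of the reads inside the 68 miRNAs, and of the Sfmbt2 reads outside them, with 1 point per library. Bars beside the points give mean and SD in the first 2 panels, and in the third the level over all reads of the group with its exact 95% counting interval. Inside the miRNAs the 4 Dicer/Dnmt1 KO libraries lie at 0 to 15.8 RPM, below all 6 WT libraries, whereas outside them the groups overlap.

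Reads of Sfmbt2 also fell outside the miRNAs. There were 20 in WT, 4 in Dnmt1 KO and 5 in Dicer/Dnmt1 KO, which amounts to 26.2 (16.02 to 40.5), 22.8 (6.22 to 58.4) and 20.2 RPM (6.56 to 47.2). The ratio of Dicer/Dnmt1 KO to WT was 0.771 outside the miRNAs (0.226 to 2.12), and 0.00874 inside them (0.000221 to 0.0490). These intervals did not overlap, but 4 of the 5 reads outside the miRNAs in Dicer/Dnmt1 KO came from library 2B. Without 2B, 1 read in 96629 was left outside the miRNAs (10.3 RPM), and the ratio of 0.395 (0.00952 to 2.47) overlapped that inside them, 0.0224 (0.000564 to 0.125). In Dnmt1 KO against WT the ratio was 0.870 outside the miRNAs (0.216 to 2.60), an interval that holds the ratio of 2.35 inside them. Of the Sfmbt2 reads, 94.6% lay inside the miRNAs in WT (95% Wilson interval 91.9% to 96.5%), 97.9% in Dnmt1 KO (94.8% to 99.2%) and 16.7% in Dicer/Dnmt1 KO (3.01% to 56.4%), the last from 6 reads. The share was tested over libraries with at least 20 Sfmbt2 reads, which left no Dicer/Dnmt1 KO library and 1 comparison. It was 97.7% ± 2.04 in Dnmt1 KO (n = 2) and 94.2% ± 2.32 in WT (n = 5), a difference of 3.52 percentage points that did not pass a two-sided exact permutation test (p = 0.190, the smallest this design allows being 0.0952). Counting did not separate strands, so reads outside the miRNAs may stem from either strand of the gene.

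Mir467c, the most abundant member (chr2:10395558-10395654), stood at 118, 131, 124, 214, 97.0 and 153 RPM in the WT libraries 1A to 3B. It stood at 355 and 446 RPM in Dnmt1 KO and had no read in any Dicer/Dnmt1 KO library. The Dnmt1 KO libraries were above all 6 WT libraries.

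Mir669c (chr2:10430923-10431031), from the downstream end of the array, stood at 102, 186, 62.0, 57.1, 194 and 195 RPM in the WT libraries. It stood at 177 RPM in both Dnmt1 KO libraries, within the WT range, and at 0 in the 4 Dicer/Dnmt1 KO libraries. Mir467d and Mir467e lie close upstream of Mir669c.

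Mir467d (chr2:10429257-10429341) stood at 69.3, 34.5, 62.0, 64.2, 13.9 and 55.6 RPM in WT, at 163 and 139 RPM in Dnmt1 KO, and at 0 in Dicer/Dnmt1 KO. Mir467e (chr2:10427348-10427434) stood at 44.9, 27.6, 0, 42.8, 27.7 and 27.8 RPM in WT and at 133 and 149 RPM in Dnmt1 KO. Its single read in Dicer/Dnmt1 KO 2A, worth 15.8 RPM, was the only member read of that genotype. Both members were higher in each Dnmt1 KO library than in each WT library, and Mir467e alone overlapped between WT and Dicer/Dnmt1 KO. The miRNAs tested below were also higher in Dnmt1 KO than in WT, by a median of 1.40 on the log2 scale. Mir467d and Mir467e reached the level required for testing in Dnmt1 KO alone, so their separation carries no weight beyond that choice.

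Per 100 nt of member interval, mean WT levels were 144 RPM for Mir467c, 122 for Mir669c, 58.7 for Mir467d and 32.7 for Mir467e. In Dnmt1 KO they were 413 RPM for Mir467c, 178 for Mir467d, 162 for Mir669c and 162 for Mir467e. Without division by length, Dnmt1 KO means were 177 RPM for Mir669c, 151 for Mir467d and 141 for Mir467e. The place of Mir467d above Mir669c thus came from the division alone. The levels of Mir467c and Mir669c overlapped between WT libraries and did not overlap between the Dnmt1 KO libraries.

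**Figure D3:**
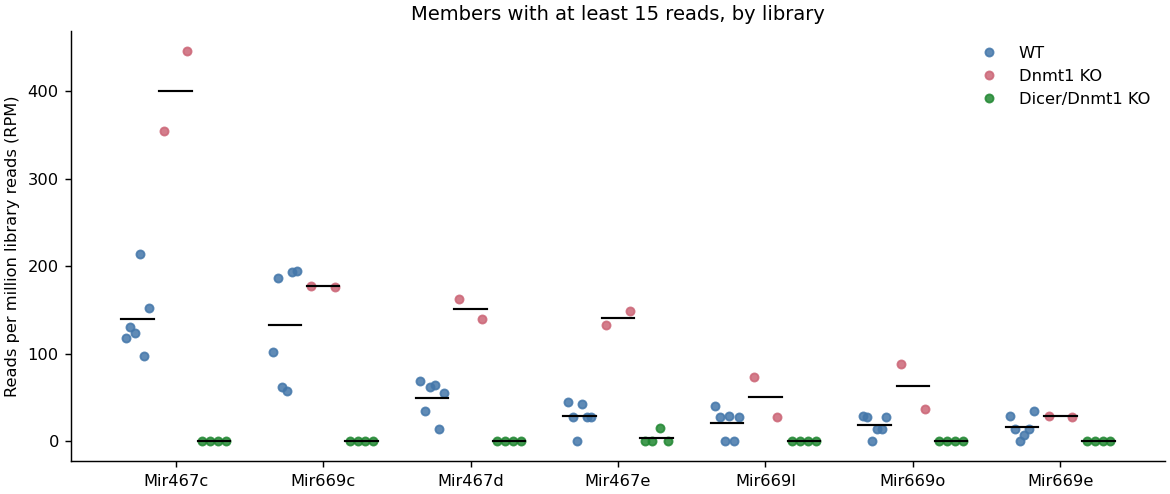
RPM of the 7 members with at least 15 reads, with 1 point per library, coloured by genotype, and a black line at the mean of each group. Mir467c, Mir467d and Mir467e are higher in both Dnmt1 KO libraries than in all 6 WT libraries, while Mir669c at 177 RPM lies within the WT range, and Dicer/Dnmt1 KO is at 0 but for 1 read of Mir467e.

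The 3 further Mir669 members were lower. Mir669l gave 10, 4, 0, 4, 0 and 4 reads in the WT libraries and 5 and 3 in Dnmt1 KO. Mir669o gave 7, 4, 0, 2, 1 and 4 reads in WT and 6 and 4 in Dnmt1 KO. Mir669e gave 7, 2, 0, 1, 1 and 5 reads in WT and 2 and 3 in Dnmt1 KO. None of the 3 had a read in Dicer/Dnmt1 KO, and none reached the level required for testing. Over all reads of a group, the ratio of Dnmt1 KO to WT was 1.58 for Mir669l (0.609 to 3.69), 2.42 for Mir669o (0.997 to 5.52) and 1.36 for Mir669e (0.390 to 3.88), so that no difference was detectable at this depth. Dicer/Dnmt1 KO was taken at the limit of 3 reads over the group. Against it, WT was 2.38-fold higher for Mir669l, 1.95-fold for Mir669o and 1.73-fold for Mir669e. These folds take the WT reads as exact and are not bounds.

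Of the scarce members, Mir669h had 2 reads in WT 2B and 1 each in WT 3B and both Dnmt1 KO libraries. Mir297a-5 had 2 reads in each Dnmt1 KO library and none elsewhere. Mir466n had 2 reads in WT 2B and 1 in Dnmt1 KO A, and Mir466h had 1 each in WT 1A and both Dnmt1 KO libraries. Mir669a-3 had 2 reads in WT 1A and 1 in WT 2B, and Mir467a-1 had 1 each in WT 1A, 1B and 3A. A count of 0 allows up to 3 reads, between 12.2 RPM at the greatest depth and 344 RPM at the least in a single library. Over all reads of a group and with 0 put at 3 reads, the level of Mir297a-5 in Dnmt1 KO was 5.80-fold that in WT and 1.88-fold that in Dicer/Dnmt1 KO. These folds take its 4 reads as exact and are not bounds. Mir297a-5 did not reach the level required for testing. Limma without the filter called it in both comparisons, as it did 61 and 175 of 14232 features in either direction. Its reads lie in 1 pair and every other library is at 0, so this call is no support for a difference.

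For the test, reads were scaled by trimmed means of log ratios and fitted as log2(RPM + 10) in limma over all 3 groups. The filter asked that a feature reach 111 RPM (10 reads in a library of median size) in 2 or more libraries, and 15 reads in total, and it kept 683 features, among them 133 miRNAs, Sfmbt2 and 4 of the 68 members. Mir467c reached that level in 5 WT and 2 Dnmt1 KO libraries, Mir669c in 3 and 2, and Mir467d and Mir467e in the 2 Dnmt1 KO libraries alone. The 4 members thus passed through the genotypes in which they were high, and a count or median over them is no support for a direction. Fold changes against a genotype at 0 depend on the pseudocount of 10 RPM and are not bounds.

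In Dicer/Dnmt1 KO against WT, Sfmbt2 fell by 4.32 on the log2 scale (SE 0.49, limma adjusted p = 1.29e-05). Mir467c fell by 4.11 (SE 0.44, adjusted p = 8.58e-06) and Mir669c fell by 3.91 (SE 0.40, adjusted p = 5.16e-06). Mir467d fell by 2.72 (SE 0.54, adjusted p = 0.00148). Mir467e, at -1.56 (SE 0.56), had an adjusted p of 0.0602 and did not pass. Hence 3 of 4 tested members were called lower, where 60.9% of the 133 tested miRNAs and 19% of all 683 features were called lower. The median of the 4 members was -3.31, against -2.75 for the tested miRNAs and -0.09 for all features. Members at 0 were also put at the limit of 3 reads over the group. WT was then 11.8-fold higher for Mir467c, 11.1-fold for Mir669c and 4.43-fold for Mir467d. These folds take the WT reads as exact and are not bounds. The ratio for Mir467e was 8.76 (1.44 to 359). The median with 0 put at that limit was -3.30 on the log2 scale.

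In Dicer/Dnmt1 KO against Dnmt1 KO, Sfmbt2 fell by 5.83 (SE 0.66, limma adjusted p = 2.15e-05). Mir467c fell by 5.76 (SE 0.60, adjusted p = 1.18e-05), Mir669c fell by 4.62 (SE 0.54, adjusted p = 2.27e-05), Mir467d fell by 4.40 (SE 0.72, adjusted p = 0.000328) and Mir467e fell by 4.06 (SE 0.75, adjusted p = 0.000873). All 4 tested members were called lower, as were 74.4% of the tested miRNAs and 21.7% of all features. Their median was -4.51, against -4.17 for the tested miRNAs. With 0 put at the same limit, Dnmt1 KO was 33.9-fold higher for Mir467c, 14.6-fold for Mir669c and 12.2-fold for Mir467d. These folds take the Dnmt1 KO reads as exact and are not bounds. The ratio for Mir467e was 35.3 (5.77 to 1448), and the median with that limit was -4.47.

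In Dnmt1 KO against WT, the difference was 1.51 for Sfmbt2 (SE 0.63, limma adjusted p = 0.210), 1.65 for Mir467c (SE 0.56, adjusted p = 0.111) and 1.69 for Mir467d (SE 0.68, adjusted p = 0.202). It was 2.49 for Mir467e (SE 0.71, adjusted p = 0.0521) and 0.72 for Mir669c (SE 0.51, adjusted p = 0.498). In limma 0 of 4 members were called, with 3 at an unadjusted p under 0.05. Calls higher in this main fit came to 21.1% of the tested miRNAs and 6.59% of all features. Voom weights on the recovered reads called 2 of 4 members higher, and 73 of all 683 features. The median of the 4 members was 1.67, against 1.40 for the tested miRNAs and 0.13 for all features. Mir467d and Mir467e passed the filter through Dnmt1 KO alone. This median and the tests of Mir467d and Mir467e here are thus no support for a rise. Without WT 2A, the WT library with the fewest reads, Mir467c (1.74, limma adjusted p = 0.0327) and Mir467e (2.07, adjusted p = 0.0309) were called higher, among 70 of 735 features. In Dicer/Dnmt1 KO against WT Mir467e was then called lower as well (-1.92, adjusted p = 0.00483). Without scaling factors the median of all features moved from -0.09 to 0.61 in Dicer/Dnmt1 KO against WT and from -0.16 to 0.75 against Dnmt1 KO, and calls higher rose from 35 of 165 to 84 of 200 and from 8 of 156 to 24 of 151, while the members kept their direction in all 3 comparisons. The 3 comparisons share their libraries.

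**Figure D4:**
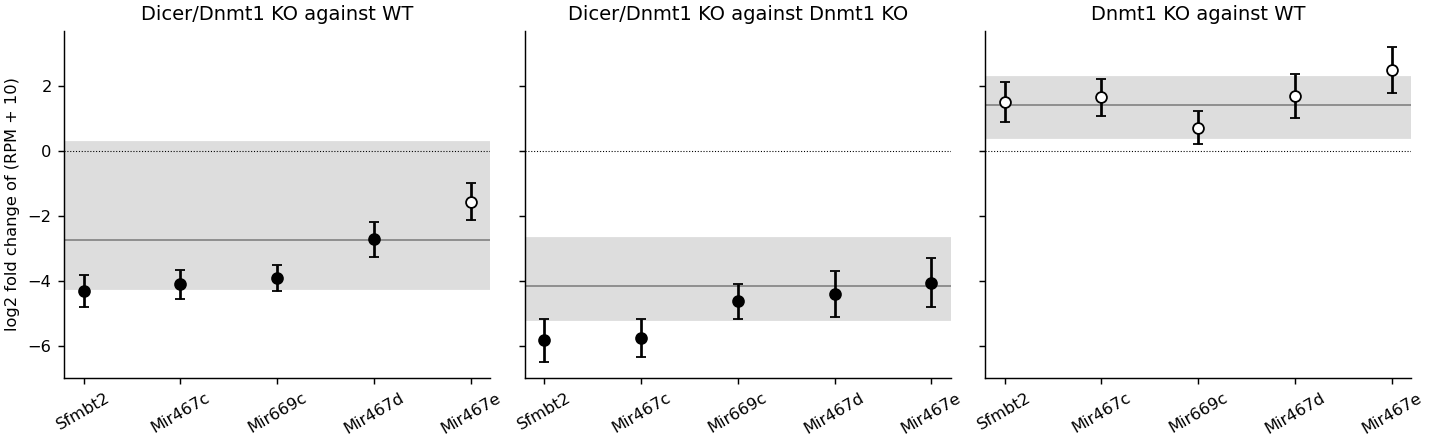
log2 fold changes of (RPM + 10) with standard errors for Sfmbt2 and the 4 tested members in the 3 comparisons, filled where the limma adjusted p was under 0.05. The grey line and band give the median and quartiles of the 133 tested miRNAs. The members lie between -4.11 and -1.56 against WT in Dicer/Dnmt1 KO, and Sfmbt2 and Mir467c fall below the band against Dnmt1 KO.

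The make-up of the cluster varied between library pairs. Mir669c made up 52.0% of the Mir669c and Mir467c reads in WT pair 1 (95% Wilson interval 42.3% to 61.5%) and 59.2% in WT pair 3 (47.5% to 69.8%). It made up 21.95% in WT pair 2, titled E14 2 (12.003% to 36.7%), and 30.1% in the Dnmt1 KO pair (22.1% to 39.5%). The E14 2 and Dnmt1 KO pairs thus lay below the other WT pairs. This ratio was chosen after its values were seen and carries no test. Mir467c against Mir467d and Mir467e together varied less, with Mir467c at 56.5%, 66.7% and 65.9% of their reads in WT pairs 1 to 3 and at 58.5% in Dnmt1 KO.

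**Figure D5:**
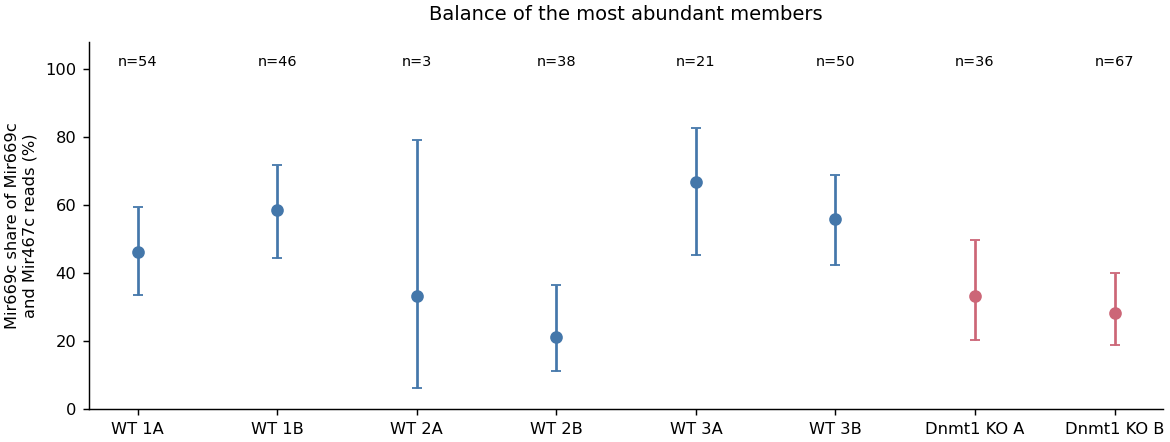
Percentage of Mir669c among the reads of Mir669c and Mir467c in each WT and Dnmt1 KO library, with 95% Wilson intervals and the number of reads above each point. WT 2B, Dnmt1 KO A and Dnmt1 KO B lie at 21.1%, 33.3% and 28.4%, below WT 1A, 1B, 3A and 3B at 46.3% to 66.7%, and WT 2A rests on 3 reads.

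Markers of other cells moved with genotype beside these results. Of 11 fibroblast miRNAs, which feeder cells would contribute, 10 were in the table and 9 had reads, with Mir199a-1 at 0. Their summed level was 9287 to 15007 RPM in WT, 39481 to 48213 RPM in Dnmt1 KO and 11241 to 36041 RPM in Dicer/Dnmt1 KO. Of the 6 tested, 3 rose in Dnmt1 KO against WT, namely Mir143 (3.63), Mir22 (2.62) and Mir21 (1.73). In that comparison 21.1% of the tested miRNAs and 6.59% of all features were called higher. The median of the tested miRNAs was 1.40. Against WT, Mir143 (2.95) and Mir221 (1.61) rose in Dicer/Dnmt1 KO, where 35 of 683 features were called higher. Mir21 (-2.39) and Mir22 (-3.403) fell in Dicer/Dnmt1 KO against Dnmt1 KO. There 74.4% of the tested miRNAs and 21.7% of all features were called lower. Mir10b and Mir222 passed in no comparison. The part of other cells in the levels of the cluster was not tested.

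The defining miRNAs of ESCs, from the Mir290 and Mir302 clusters, were present, with all 12 listed detected and 10 tested. They summed to 28683 to 93275 RPM in WT, 55926 to 99648 RPM in Dnmt1 KO and 1221 to 3797 RPM in Dicer/Dnmt1 KO. All 10 fell in Dicer/Dnmt1 KO against WT, from Mir290 at -2.74 to Mir294 at -6.45, with Mir291a, Mir291b, Mir292, Mir293, Mir295, Mir302a, Mir302b and Mir302d between. Called lower against WT were 60.9% of the tested miRNAs and 19% of all features. Against Dnmt1 KO 9 fell, Mir302b being the exception (-1.61, limma adjusted p = 0.474). Called lower there were 74.4% of the tested miRNAs and 21.7% of all features. In Dnmt1 KO against WT 0 were called, where 21.1% of the tested miRNAs and 6.59% of all features were called higher. Of 10 trophoblast genes, the lineage in which the cluster is best known, 7 were at 0 in all libraries (Elf5, Cdx2, Ascl2, Eomes, Hand1, Prl3d1 and Tpbpa) and the list reached at most 20.8 RPM. Reads of 20 to 24 nt do not measure mRNA, so these values do not show whether trophoblast cells were present. Of 13 genes of miRNA making and use that were in the table, from Drosha and Dgcr8 to the Argonautes, 12 had reads and none reached the level required for testing, under the same limit for mRNA.

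Over the 12 libraries, the tested features outside Sfmbt2 whose log2 levels ran most like the summed members were Mir181d (Pearson r = 0.990), Mcm7 (0.989), Ttll10 and Gm13648 (both 0.984) and Mir200a (0.984), among 678 compared. Mcm7 and Ttll10 are host genes of the Mir106b and Mir200b clusters and carried their reads. The libraries share genotype, depth and the low miRNA level of Dicer/Dnmt1 KO, so these values describe a pattern common to many miRNAs.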

How the data were processed

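Small RNA-seq of 12 ESC libraries was read from 1 table. Per the labels and the methods of the study, the authors trimmed reads (Trim Galore 0.3.5), kept 20 to 24 nt, mapped them to NCBIM37 (Bowtie2 2.2.6) and counted overlaps with features in SeqMonk. Strand was not used in counting, as 3 of 3 abundant miRNAs antisense to a gene were counted for both. Placement of reads with several positions is not given in the sources used here. The deposited values are log2 RPM, with 0 reads written as 0.9 read. Dividing by the value of 1 read returned whole reads for 100% of values (tolerance 0.02) and the library reads. A further 89 value columns were not used. All 32101 features matched GENCODE vM1.

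limma 3.58.1 (R 4.3.3) was fitted with a mean-variance trend on log2(RPM + 10) after TMM scaling (trimming 30% of ratios and 5% of abundances, over tested features), in 1 model of 3 groups without covariates. P-values were adjusted by Benjamini-Hochberg over 683 features at 0.05. The main fit used limma on log values because the deposited unit is log2, and no count model was run. Recovered reads would have allowed one, and voom weights on them were an alternative. Shares were compared by an exact permutation test (scipy 1.17.1). Sfmbt2, members past the filter and members with most reads were named. Of lists, the tested genes were named, and of features most like the cluster, 5. The fit was tested on simulated data. Alternatives were scaling, pseudocount, filter, voom, blocks, summed A and B, and left-out libraries. The members and lists were chosen with earlier results of these data known. Equal replicate labels did not deviate together (correlations of -0.23, 0.11, -0.17 and -0.28 for 1A, 1B, 2A and 2B) and were not treated as pairs.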

Additional observations from a re-analysis of the deposited data

Results flagged for a closer look

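Of 12 sets of libraries examined by Dixon's test, 2 held a library apart from the others, and both rest on the same read. In Dicer/Dnmt1 KO, library 2A stood at 15.8 RPM of Mir467e and at 15.8 RPM of the summed miRNAs, while the other 3 libraries were at 0. This was 1 read in 63428, below the 3 reads (47.3 RPM) that a count of 0 allows in that library. With 3 libraries at 0, any read in the fourth is set apart by this test, so that its usual rate of about 1 in 20 by chance does not apply.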

How the results depend on the processing

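The falls of Sfmbt2 in Dicer/Dnmt1 KO kept their direction and their call under all alternatives run, between -5.49 and -3.02 against WT and between -7.02 and -4.46 against Dnmt1 KO on the log2 scale. No value reversed. Sfmbt2 in Dnmt1 KO against WT was called higher with a pseudocount of 50 RPM (1.44, limma adjusted p = 0.0280), with voom weights (1.53, adjusted p = 0.0336) and with those 2 groups alone (1.48, adjusted p = 0.0491), and over the other alternatives its adjusted p reached 0.832. Members called higher there were 1 of 4 with medians of ratios and with TMM without miRNAs (45 and 53 of 683 features higher). Without a filter 1 of 20 was called (55 of 14232 features). With a pseudocount of 50 RPM or voom weights 2 of 4 were called (62 and 73 of 683 features), and without E14 2 3 of 4 (96 of 660 features). When each WT or Dicer/Dnmt1 KO library was left out, 0 to 2 were called. In Dicer/Dnmt1 KO the called members were 1 of 1 tested under the stricter filter in both comparisons (142 and 132 of 470 features called in either direction). Against Dnmt1 KO they were 7 of 20 without a filter (175 of 14232 features) and 2 of 2 with 2 groups alone (148 of 499 features). When each WT or Dicer/Dnmt1 KO library was left out, 3 or 4 were called in both comparisons. The number of tested members changed in some of these settings, and without WT 2A 4 of 4 were called against WT, Mir467e being added with the same 4 tested. Leaving out Dnmt1 KO A or B left 2 members past the filter, both called, with the lone library assumed to vary like the other groups. All features called in Dnmt1 KO against WT, 47 in the main fit, ranged from 16 without Dnmt1 KO B to 181 without E14 2 (84 without WT 2A, 80 with voom weights, 17 with A and B summed), and the cause was not tested. After TMM the summed members came to 1470 RPM in Dnmt1 KO and 505 RPM in WT. With the replicate block of the title labels over 8 libraries, Sfmbt2 fell by 4.36 against WT (adjusted p = 0.00333), as it did without the block (adjusted p = 0.000958, chosen after seeing the data), and the replicate block of the letter A or B changed no call of Sfmbt2 or of a tested member. With the pair as a random block in limma no such call changed either, but adjusted p-values rose. They came to 0.00627 for Mir467d in Dicer/Dnmt1 KO against WT, and in Dnmt1 KO against WT to 0.492 for Sfmbt2 and 0.204 for Mir467e. The share of Sfmbt2 reads inside the miRNAs differed by 2.89 percentage points without E14 2 (chosen after seeing the data) and by 4.03 with A and B summed. Leaving out each library (chosen after seeing the data), the ratio of Dicer/Dnmt1 KO to WT outside the miRNAs ran from 0.395 without Dicer/Dnmt1 KO 2B to 1.04 without 2A. At this depth 4 of 68 members could be tested.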
